A study of Homo sapiens with 6 samples.

Results

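Tubulins are the proteins that microtubules are built from, and 10 human tubulin genes were followed here in CAL27, an established line of human tongue squamous carcinoma cells. They are the alpha genes TUBA1A, TUBA1B, TUBA1C and TUBA4A, the beta genes TUBB, TUBB2A, TUBB3, TUBB4B and TUBB6, and the gamma gene TUBG1. All rows of the deposited count table with these symbols were taken, 10 of the 60564 genes it lists. The members were selected on their counts in this same comparison, CNTNAP2-203 OE against control, so their differences between groups are given as a description, and no test of them is offered. The cells of 3 libraries stably carried a lentiviral CNTNAP2-203 construct (CNTNAP2-203 OE, overexpression), and those of 3 libraries a control vector (genotype labelled WT, EGFP in the sample descriptions). Both groups had been infected with lentivirus and then kept in 5 μg/ml puromycin over 2 weeks. Whether the replicates were grown or infected separately is not said in the labels, so the spread between them may be technical. The series' title links CNTNAP2-203 to EGFR, to E2F1 activity and to tumour growth in this cancer.

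An alpha and a beta tubulin bind each other, and these dimers join end to end and side by side into the wall of the microtubule, while gamma-tubulin sits in a ring-shaped complex from which new microtubules grow. The isotypes of a kind are encoded by separate genes and differ most in their acidic C-terminal tails, where enzymes add and remove amino acids. Cells also hold tubulin mRNA in check: when free dimers are in excess, the protein TTC5 binds nascent tubulin at the ribosome and the mRNA is degraded.

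Total counts were 36843190 to 42412703 per library, from total RNA depleted of ribosomal RNA, and control replicate 1 is labelled as submitted with 1 read of each pair. CNTNAP2 had 140022, 156055 and 119280 counts in CNTNAP2-203 OE replicates 1, 2 and 3, against 0, 3 and 4 counts in control replicates 1, 2 and 3. CNTNAP2-203 OE replicate 3 stood apart from the rest of its group. It had the lowest total count and the fewest genes with a count (25336, against 26418 to 27002 elsewhere). Its counts differed from those of the other CNTNAP2-203 OE libraries by a chi-square of 82.6 and 89.5 per degree of freedom, where the other pairs within a group gave 33.1 to 38.9. What the lower depth contributes to these differences was not tested. Of 7 squamous epithelial markers all were detected, with a summed level of 12920 to 15767 CPM in CNTNAP2-203 OE and 12748 to 14656 CPM in control. Of 9 neuronal markers, DCX was at 0 in all libraries and the sum was 15.2 to 22.9 CPM in CNTNAP2-203 OE and 12.9 to 17.3 CPM in control. Markers of fibroblasts summed to 40.0 to 42.9 CPM in CNTNAP2-203 OE and 40.9 to 45.9 CPM in control, those of leukocytes to 22.5 to 28.6 CPM in CNTNAP2-203 OE and 22.9 to 32.8 CPM in control, and those of endothelium, with KDR at 0, to 7.74 to 11.5 CPM in CNTNAP2-203 OE and 5.98 to 9.58 CPM in control.

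Per length, 4 genes made up nearly all of the tubulin mRNA in these cells, and the neuronal isotypes were low. In FPKM, which is comparable between genes, TUBB averaged 386 ± 20.3 in CNTNAP2-203 OE and 215 ± 8.42 in control (SD, n = 3 each). TUBB4B averaged 370 ± 47.0 FPKM in CNTNAP2-203 OE and 229 ± 9.93 FPKM in control. TUBA1B was at 284 ± 49.4 FPKM in CNTNAP2-203 OE and 145 ± 10.5 FPKM in control, and TUBA1C at 155 ± 18.8 FPKM in CNTNAP2-203 OE and 94.6 ± 5.10 FPKM in control. A wide gap followed, since TUBG1 was next at 27.5 ± 2.80 FPKM in CNTNAP2-203 OE and 18.4 ± 1.00 FPKM in control.

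Among the members, TUBA4A, TUBB6 and TUBB2A came after that, with FPKM means of 9.83 to 14.6 in CNTNAP2-203 OE and 8.97 to 11.0 in control, and their ranges over libraries overlapped from each to the next in both groups. TUBB3 averaged 4.71 ± 0.390 FPKM in CNTNAP2-203 OE and 3.09 ± 1.18 FPKM in control. TUBA1A was the lowest member, at 1.56 ± 1.13 FPKM in CNTNAP2-203 OE and 0.758 ± 0.438 FPKM in control. At the top the order was not the same in both groups. In CNTNAP2-203 OE the mean of TUBB was above that of TUBB4B with overlapping ranges, and the ranges of TUBB4B and TUBA1B overlapped too. In control, the mean of TUBB4B was above that of TUBB, with the lowest TUBB4B library at 222.6 FPKM and the highest TUBB library at 222.5 FPKM.

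**Figure D1:**
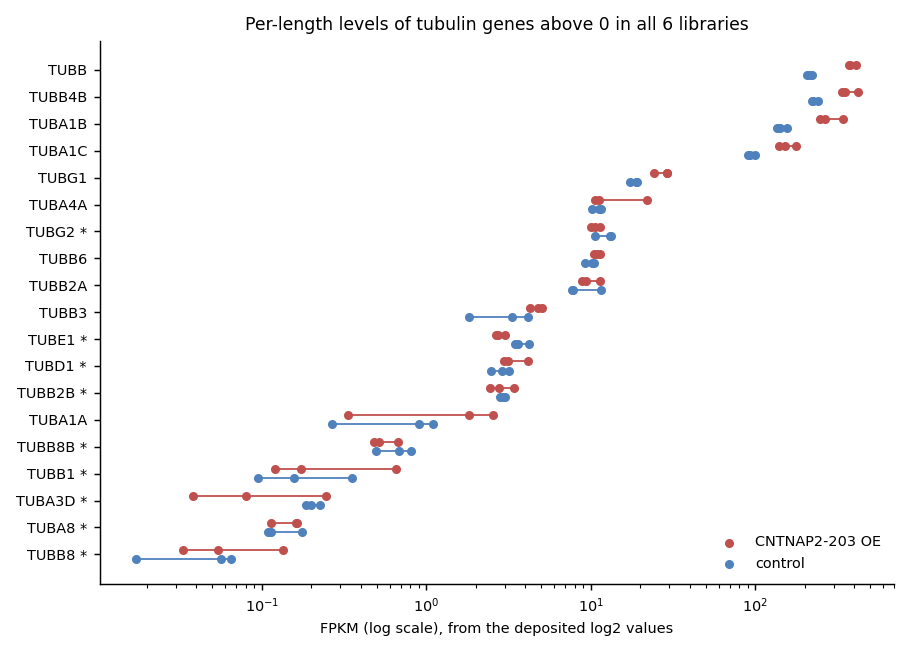
Per-length level (FPKM, log scale) of the 19 tubulin genes that were above 0 in all 6 libraries. Each point is a library, the line spans the 3 libraries of a group, red is CNTNAP2-203 OE (upper) and blue is control (lower), and an asterisk marks a tubulin gene that is no member. TUBB, TUBB4B, TUBA1B and TUBA1C lie at 90.8 FPKM or more in every library, with no overlap between the groups.

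TUBA1B and TUBA1C, the alpha isotypes of dividing cells, were both higher in every CNTNAP2-203 OE library than in any control. For comparisons between groups, levels are given in CPM (counts scaled to the library total after TMM, a correction for library composition). TUBA1B was at 1082, 1149 and 1571 CPM in CNTNAP2-203 OE replicates 1, 2 and 3, against 678, 586 and 614 CPM in control replicates 1, 2 and 3. The groups stood well apart, and CNTNAP2-203 OE replicate 3 was the highest library. The fitted log2 fold change of TUBA1B was 1.02 (SE 0.154), a 2.02-fold difference. TUBA1C was at 789, 852 and 1053 CPM in CNTNAP2-203 OE replicates 1, 2 and 3, against 562, 515 and 510 CPM in control replicates 1, 2 and 3. Here too replicate 3 was the top library of CNTNAP2-203 OE, and its lowest library exceeded the highest control. The log2 fold change of TUBA1C was 0.76 (SE 0.127), or 1.70-fold. TUBA1B lies on the minus strand at chr12:49127782-49131397 and TUBA1C on the plus strand at chr12:49188736-49274603 (GENCODE 29, GRCh38).

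TUBA4A, an alpha isotype whose gene encodes no C-terminal tyrosine, was set apart by a single library. It had 54.9, 50.9 and 113 CPM in CNTNAP2-203 OE replicates 1, 2 and 3, against 55.5, 48.5 and 54.0 CPM in control replicates 1, 2 and 3. CNTNAP2-203 OE replicate 3 was high, and the other 5 libraries lay close together. The log2 fold change of TUBA4A was 0.47 (SE 0.312), and 0.01 without that library. TUBA1A, the alpha isotype best known from developing neurons, had 1.37, 7.07 and 10.5 CPM in CNTNAP2-203 OE replicates 1, 2 and 3, against 4.31, 3.52 and 1.09 CPM in control replicates 1, 2 and 3. These values rest on 46 to 369 counts per library and overlapped, with low libraries in both groups. Its log2 fold change of 1.09 had an SE of 0.830, and was 0.51 without CNTNAP2-203 OE replicate 3 and 0.69 without control replicate 3.

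Among the beta genes, TUBB and TUBB4B, the common isotypes of most cells, were higher in CNTNAP2-203 OE without overlap. TUBB was at 1475, 1457 and 1700 CPM in CNTNAP2-203 OE replicates 1, 2 and 3, against 864, 794 and 841 CPM in control replicates 1, 2 and 3. The 3 libraries of each group were close to each other beside the distance between the groups. The log2 fold change of TUBB was 0.89 (SE 0.102), or 1.85-fold. TUBB4B was at 838, 866 and 1115 CPM in CNTNAP2-203 OE replicates 1, 2 and 3, against 592, 545 and 553 CPM in control replicates 1, 2 and 3. As for TUBA1B, replicate 3 was the highest CNTNAP2-203 OE library. The log2 fold change of TUBB4B was 0.74 (SE 0.129), or 1.67-fold. TUBB is on the plus strand at chr6:30720201-30725426 and TUBB4B on the plus strand at chr9:137241213-137243707.

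The remaining beta genes differed less or varied more. TUBB3, the beta isotype of neurons that is also found in carcinomas, had 23.5, 25.6 and 29.2 CPM in CNTNAP2-203 OE replicates 1, 2 and 3, against 22.3, 17.8 and 9.87 CPM in control replicates 1, 2 and 3. The groups did not overlap, but the highest control lay just under the lowest CNTNAP2-203 OE library and the controls were widely spread. The log2 fold change of TUBB3 was 0.65 (SE 0.277), and 0.38 without control replicate 3. TUBB6, a beta isotype made at low level in many tissues, had 51.0, 54.4 and 56.0 CPM in CNTNAP2-203 OE replicates 1, 2 and 3, against 49.9, 43.9 and 48.7 CPM in control replicates 1, 2 and 3. Its groups also did not overlap, and the difference was small, with a log2 fold change of 0.18 (SE 0.0989). TUBB2A, an isotype of brain, had 20.1, 18.7 and 25.6 CPM in CNTNAP2-203 OE replicates 1, 2 and 3, against 16.2, 24.1 and 16.5 CPM in control replicates 1, 2 and 3. Control replicate 2 lay above 2 of the CNTNAP2-203 OE libraries, and the log2 fold change of TUBB2A was 0.18 (SE 0.197), from 0.03 without CNTNAP2-203 OE replicate 3 to 0.39 without control replicate 2.

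TUBG1, the main gamma-tubulin of dividing cells, was higher in CNTNAP2-203 OE. It had 71.3, 84.8 and 89.9 CPM in CNTNAP2-203 OE replicates 1, 2 and 3, against 55.4, 54.5 and 50.3 CPM in control replicates 1, 2 and 3. All 3 CNTNAP2-203 OE libraries were above all controls, with replicate 1 the lowest of them. The log2 fold change of TUBG1 was 0.62 (SE 0.115), or 1.54-fold. The gene lies on the plus strand at chr17:42609676-42615234.

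**Figure D2:**
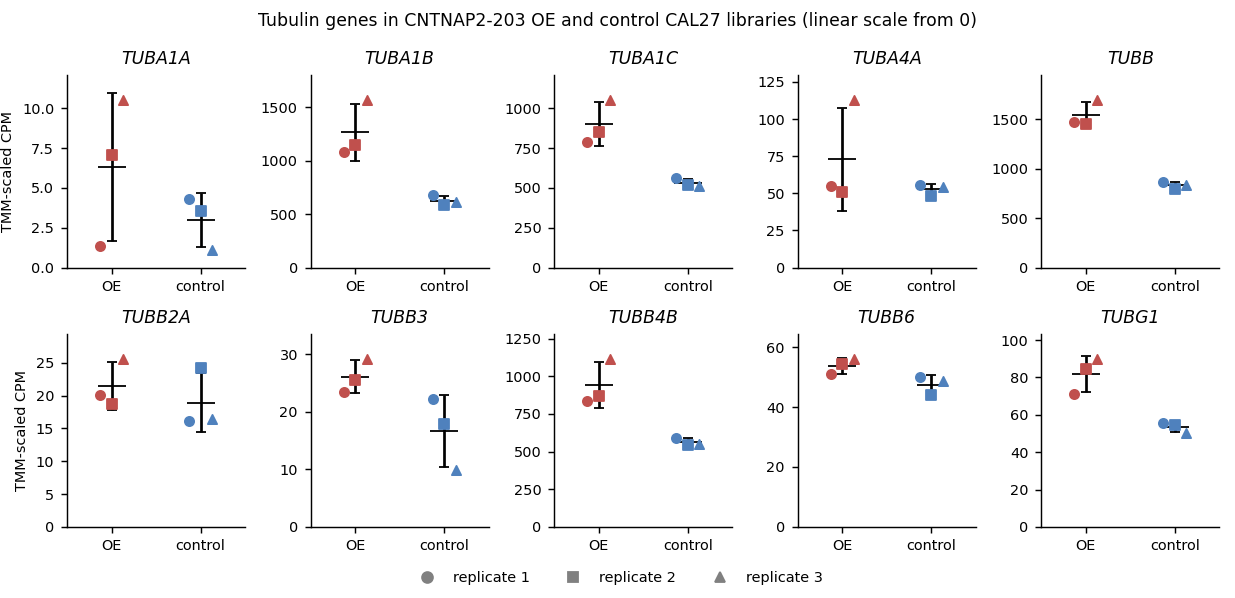
TMM-scaled CPM of the 10 tubulin genes in each library, on linear axes from 0, with CNTNAP2-203 OE in red on the left and control in blue on the right of each panel. Symbols stand for replicates 1 to 3 and bars for mean ± SD. TUBA1B, TUBA1C, TUBB, TUBB4B and TUBG1 show separate groups, and TUBA4A shows 1 high library at 113 CPM.

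All 10 members passed the filter on low counts and the log2 fold change was above 0 for each, the median being 0.69 against -0.0038 over the 18786 genes tested. In the edgeR quasi-likelihood fit over all genes, 5 members (TUBA1B, TUBA1C, TUBB, TUBB4B and TUBG1) were among the genes called higher at an adjusted p under 0.05. Over all tested genes 0.798% were called higher. In 7 of the 10 members all CNTNAP2-203 OE libraries lay above all controls, which was so for 13.7% of tested genes, and groups without overlap in either direction made up 26.5%. Because the choice of members used this comparison, nothing is read from these counts. The calls changed when a library was left out. Without CNTNAP2-203 OE replicate 1, 2 or 3, 0, 1 and 5 members were called, and the member called without replicate 2 was TUBB. No member was called without any one of control replicates 1, 2 and 3, where the calls over all genes also dropped to between 13 and 20. The log2 fold changes of the 5 genes kept their sign in these fits. Without CNTNAP2-203 OE replicate 3 they were 0.83 for TUBA1B, 0.63 for TUBA1C, 0.81 for TUBB, 0.60 for TUBB4B and 0.55 for TUBG1.

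Summed over isotypes, the alpha and the beta mRNA were higher by similar factors. The 9 alpha genes of the table together gave 397, 429 and 540 FPKM in CNTNAP2-203 OE replicates 1, 2 and 3, against 270.0, 240.5 and 244 FPKM in control replicates 1, 2 and 3. The 10 beta genes gave 738, 753 and 865 FPKM in CNTNAP2-203 OE replicates 1, 2 and 3, against 489, 456 and 463 FPKM in control replicates 1, 2 and 3. Neither sum overlapped between groups, and the mean was 1.81-fold higher for alpha and 1.67-fold for beta. These sums use the FPKM as deposited, with no TMM applied here, so the factors are not on the scale of the fitted fold changes above. The ratio of alpha to beta FPKM was 0.539, 0.570 and 0.625 in CNTNAP2-203 OE replicates 1, 2 and 3, against 0.552, 0.527 and 0.527 in control replicates 1, 2 and 3. These ratios overlapped between groups. Alpha and beta genes took 0.475 ± 0.0567% of all counts in CNTNAP2-203 OE and 0.274 ± 0.0132% in control (SD, n = 3 each). In bulk samples like these, more tubulin mRNA per cell and more cells rich in it cannot be told apart.

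The make-up of both pools differed between groups by a few percentage points. Of the summed alpha FPKM, TUBA1B held 62.2 ± 0.608% in CNTNAP2-203 OE and 57.6 ± 0.725% in control. TUBA1C held 34.3 ± 1.51% in CNTNAP2-203 OE and 37.6 ± 0.752% in control, and TUBA4A 3.12 ± 0.848% in CNTNAP2-203 OE and 4.36 ± 0.197% in control. The share of TUBA1B was higher, and the shares of TUBA1C and TUBA4A lower, in every CNTNAP2-203 OE library than in any control. Of the summed beta FPKM, TUBB held 49.3 ± 1.73% in CNTNAP2-203 OE and 45.7 ± 0.779% in control, again without overlap. TUBB4B held 47.0 ± 1.80% in CNTNAP2-203 OE and 48.7 ± 0.438% in control, with overlap, since it took 49.0% in CNTNAP2-203 OE replicate 3. TUBB6 held 1.40 ± 0.122% in CNTNAP2-203 OE and 2.12 ± 0.0841% in control, and TUBB2A 1.25 ± 0.0722% in CNTNAP2-203 OE and 1.92 ± 0.521% in control. The shares of both genes were lower in every CNTNAP2-203 OE library than in any control, although their mean CPM was not lower.

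**Figure D3:**
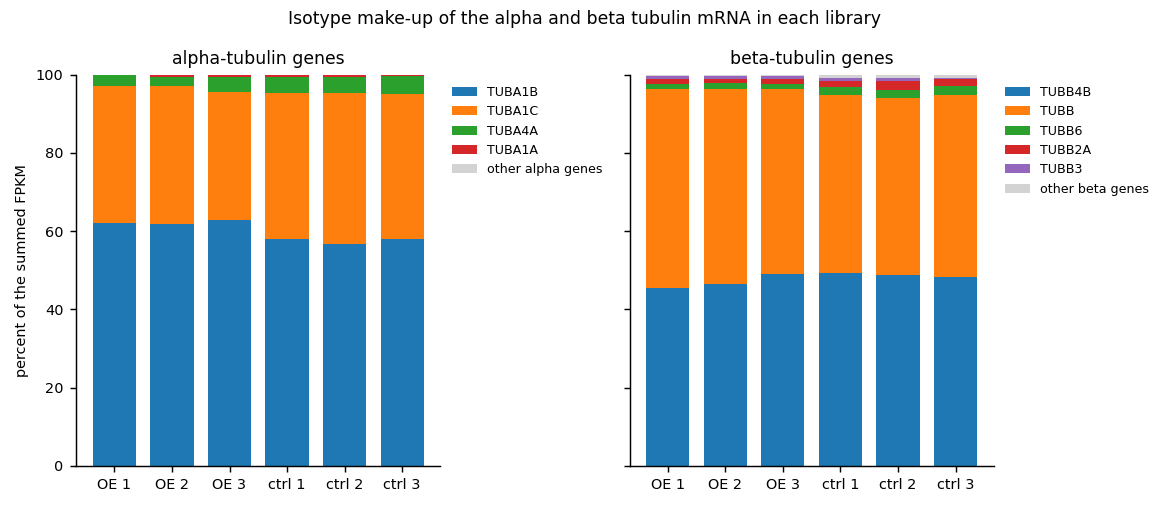
Percent of the summed alpha (left) or beta (right) FPKM that each isotype gene held in each library, with CNTNAP2-203 OE replicates 1 to 3 left of control (ctrl) replicates 1 to 3. TUBA1B holds at least 61.7% of the alpha sum in each CNTNAP2-203 OE library and at most 58.0% in the controls.

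The genes whose levels followed a member most closely over the 6 libraries were found by Pearson's r of log2 CPM, for the highest alpha member, the highest beta member and TUBG1, among 10335 genes. For TUBA1B they were SLC2A6 (a sugar transporter, r = 0.999), TUBB4B (0.999) and TK1 (thymidine kinase, 0.998). For TUBB they were ORC6 (a subunit of the origin recognition complex, r = 0.997), UBE2T (a ubiquitin-conjugating enzyme, 0.996) and CCL2 (a chemokine, 0.996). For TUBG1 they were HAUS8 (r = 0.996), ATAD3B (0.994) and NRP1 (0.994). Such values are common here, since 926 genes exceeded 0.9 with TUBA1B, 752 with TUBB and 590 with TUBG1, and the libraries fall into 2 groups of 3. They are a description of which genes moved alike in these libraries.

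How far these values belong to single genes differs between members, because tubulin genes are alike and reads from this library kit carry no strand. In coding sequence, the longest open reading frames of the alpha members were 85.0% to 97.3% identical over 6 pairs. TUBA1B was about equally close to TUBA1C (97.26% over 1350 aligned bases) and to TUBA1A (97.20% over 1356). Those of the beta members were 81.3% to 88.7% identical over 10 pairs. Of all stretches of 75 bases in the GENCODE 29 transcripts of a member, the share that also occurs in transcripts of another gene was 53.2% for TUBB2A, most of it with its neighbour TUBB2B. It was 31.3% for TUBB3, all of it with AC092143.1, an annotation that overlaps TUBB3 on the same strand. It was 18.6% for TUBA1B, which shared most with TUBA1A (10.1%), and 14.1% for TUBA1A. For TUBG1, which shares with TUBG2, it was 12.3%, and for TUBA1C 10.3%. For TUBB it was 6.40%, for TUBB4B 3.98%, for TUBA4A 1.48% and for TUBB6 0%. No source used here says how reads that match several genes were counted, so the values of members with shared stretches may include reads of other genes. Genes on the opposite strand overlap most members in this annotation, and how much of a member's value comes from them was not tested. TUBA1A, with 46 to 369 counts per library, overlaps TUBA1C, which had up to 36855 counts. TUBB6 overlaps AFG3L2, which was at 174 ± 13.2 CPM in CNTNAP2-203 OE and 156 ± 5.90 CPM in control, several times the level of TUBB6. TUBA4A overlaps TUBA4B and STK16, of which STK16 was at 25.8 ± 2.27 CPM in CNTNAP2-203 OE and 27.7 ± 1.54 CPM in control. TUBA1B overlaps AC011603.2, which was at 100.6, 0.750 and 1.03 CPM in CNTNAP2-203 OE replicates 1, 2 and 3, against 0.402 to 0.887 CPM in the controls. TUBG1 overlaps RETREG3 on the opposite strand, whose level was 74.5 ± 2.75 CPM in CNTNAP2-203 OE and 73.3 ± 8.41 CPM in control.

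The promoters of the members differed in the short motifs they hold. RefSeq (GRCh38.p14) gave 15 start sites for the 10 members, and the 250 bases before each were searched on both strands for the CCAAT box (CCAAT), for the cell cycle element CHR (TTTGAA or TTCGAA) and for an E2F site (TTTGGCGC or TTTCGCGC). The CCAAT box was found before 9 of the 15 starts, against 32.0% of the 35116 starts in the table. The windows of 2 TUBA1C starts overlap and hold the same CCAAT box, so these 9 are not independent. A GC box (GGGCGG, both strands) was found before 9 starts, against 42.6% of all, and TATAAA before 1, of TUBB2A, against 10.7%. The CHR letters stood before 4 starts, of TUBA1C, TUBB3 and TUBB4B, against 14.3% of all starts, and the E2F letters before 1, of TUBG1, against 0.968%. Shown here are the 3 genes called higher that have a single start in the table, with the CCAAT, CHR and E2F letters in capitals. TUBB4B is on the plus strand at chr9:137241037-137241286, TUBA1B on the minus strand at chr12:49131396-49131645 and TUBG1 on the plus strand at chr17:42609433-42609682.
TUBB4B: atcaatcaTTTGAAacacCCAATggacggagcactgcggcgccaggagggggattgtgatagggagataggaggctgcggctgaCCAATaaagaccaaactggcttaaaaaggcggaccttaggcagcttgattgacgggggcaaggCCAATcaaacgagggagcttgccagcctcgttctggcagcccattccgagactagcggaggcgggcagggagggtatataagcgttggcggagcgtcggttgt
TUBA1B: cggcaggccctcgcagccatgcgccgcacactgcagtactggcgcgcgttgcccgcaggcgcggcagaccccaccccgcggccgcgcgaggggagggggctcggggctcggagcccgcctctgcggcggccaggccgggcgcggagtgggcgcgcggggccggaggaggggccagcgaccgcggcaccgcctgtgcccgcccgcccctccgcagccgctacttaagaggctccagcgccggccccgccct
TUBG1: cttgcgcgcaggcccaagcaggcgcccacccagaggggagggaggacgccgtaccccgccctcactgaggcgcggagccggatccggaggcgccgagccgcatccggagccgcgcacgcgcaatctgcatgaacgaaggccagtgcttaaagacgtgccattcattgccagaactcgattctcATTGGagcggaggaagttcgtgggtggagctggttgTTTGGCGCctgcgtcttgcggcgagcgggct
TUBB4B carries 3 CCAAT boxes and a CHR, TUBA1B carries none of the 3 kinds in capitals, and TUBG1 carries a CCAAT box, read on the opposite strand, and the E2F letters. A match is a run of letters and shows no binding.

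Of the other tubulin genes none was called in either direction by edgeR, DESeq2 or limma-voom, and 1 (TUBE1) had an unadjusted p under 0.05 in edgeR. How many of all tested genes had such a p was not counted, and their share need not equal that threshold. Nothing is therefore read from this count or from those in the lists below. The table lists 13 of the other tubulin genes, TUBB8B under its older symbol TUBB8P12, and 8 passed the filter on low counts. Their log2 fold changes ran from -0.69 to 0.68 with a median of -0.07, and 4 of the 8 were positive, against 49.6% of all tested genes. The gamma gene TUBG2 was at 37.0 ± 1.29 CPM in CNTNAP2-203 OE and 41.5 ± 5.13 CPM in control (SD, n = 3 each), and its log2 fold change was -0.17 (SE 0.118, edgeR adjusted p = 0.503). TUBE1, the epsilon-tubulin of centriole triplets, had 26.3, 23.0 and 25.0 CPM in CNTNAP2-203 OE replicates 1, 2 and 3, against 31.2, 35.8 and 30.0 CPM in control replicates 1, 2 and 3. Its CNTNAP2-203 OE libraries all lay below the controls, as for 12.8% of all tested genes and for 1 of these 8, and its log2 fold change was -0.38 (SE 0.118, edgeR adjusted p = 0.160). TUBD1, the delta-tubulin, was at 14.2 ± 2.34 CPM in CNTNAP2-203 OE and 11.6 ± 1.43 CPM in control (log2 fold change 0.29, edgeR adjusted p = 0.417). TUBB2B was at 7.55 ± 1.53 CPM in CNTNAP2-203 OE and 7.38 ± 0.234 CPM in control, and its log2 fold change was 0.03 (SE 0.174, edgeR adjusted p = 0.945). TUBA3D, TUBA8, TUBB1 and TUBB8B had means of 1.37 CPM or less in both groups, with edgeR adjusted p of 0.597 to 0.838. TUBAL3 and TUBB8 had at most 23 counts in a library, TUBA3E at most 2, and TUBA3C and TUBB4A had none.

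Genes that make, modify and use tubulin were looked at in 6 more lists, and 1 of their genes was called. Together with the other tubulin genes, 99 genes of these lists were tested, of which 1 (1.01%) was called, against 1.39% of all tested genes in either direction. It was TCP1, a subunit of TRiC, the ring chaperone that folds new tubulin. TCP1 had 319, 311 and 310 CPM in CNTNAP2-203 OE replicates 1, 2 and 3, against 221, 212 and 215 CPM in control replicates 1, 2 and 3. It rose, by 0.53 on the log2 scale (SE 0.0843, edgeR adjusted p = 0.0360), and the gene stayed called without CNTNAP2-203 OE replicate 3 but not when any other library was left out. TCP1 overlaps ACAT2 on the opposite strand, itself at 152 ± 21.7 CPM in CNTNAP2-203 OE and 84.5 ± 0.802 CPM in control, and its part in the TCP1 value was not tested. All 8 TRiC subunits had their CNTNAP2-203 OE libraries above all controls, against 13.7% of tested genes, with log2 fold changes of 0.32 to 0.53 and a median of 0.40. The lists were chosen with earlier results of these data known, so such counts are a description, here and in the lists below. The other 7 were not called by edgeR with all libraries, while DESeq2 called CCT2, CCT3, CCT5 and CCT6A, and edgeR without CNTNAP2-203 OE replicate 3 called CCT5 and CCT6A. Of the 18786 tested genes, DESeq2 called 1125 and edgeR without CNTNAP2-203 OE replicate 3 called 560, against 262 by edgeR with all libraries. The smallest edgeR p of the 7 belonged to CCT5, at 652 CPM in CNTNAP2-203 OE and 485 CPM in control (log2 fold change 0.43, edgeR adjusted p = 0.0932).

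Among 15 tested genes of tubulin cofactors, prefoldin and tubulin mRNA control, none was called by edgeR, DESeq2 or limma-voom. In edgeR 3 had an unadjusted p under 0.05, with no share over all genes counted. The log2 fold change was above 0 for 13, against 49.6% of all tested genes, and the list's median was 0.22. The smallest p belonged to the prefoldin genes PFDN5 (log2 fold change 0.42, edgeR adjusted p = 0.231) and PFDN4 (0.48, adjusted p = 0.235), whose product hands unfolded tubulin to TRiC. Both were highest in CNTNAP2-203 OE replicate 3. PFDN5 had 125, 114 and 174 CPM in CNTNAP2-203 OE replicates 1, 2 and 3, against 98.7 to 105.5 CPM in control. PFDN4 had 42.4, 43.5 and 64.5 CPM in the same 3 libraries, against 32.1 to 41.2 CPM in control. TTC5, which binds nascent tubulin in the decay of tubulin mRNA, was at 56.1 ± 2.28 CPM in CNTNAP2-203 OE and 53.0 ± 1.90 CPM in control. Its log2 fold change was 0.08 (edgeR adjusted p = 0.684), and the gene was named after its value was seen. Among 23 genes of the gamma-tubulin complex, the augmin complex and nucleation, none was called by edgeR or limma-voom and 2 (HAUS8 and TPX2) by DESeq2. Over all 18786 tested genes DESeq2 called 1125. In edgeR 8 had an unadjusted p under 0.05, again with no share over all genes counted. Of the 23, 17 had a log2 fold change above 0, against 49.6% of all tested genes, and the list's median was 0.21. In 12 of the 23 the CNTNAP2-203 OE libraries lay above all controls, against 13.7% of tested genes. The smallest p belonged to HAUS8, an augmin subunit, at 23.0 CPM in CNTNAP2-203 OE and 14.0 CPM in control (log2 fold change 0.72, edgeR adjusted p = 0.0625), and to TPX2, which promotes nucleation around chromosomes, at 253 CPM in CNTNAP2-203 OE and 183 CPM in control (log2 fold change 0.47, edgeR adjusted p = 0.0848).

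Among 11 tested genes of destabilisers and severing enzymes none was called by edgeR or limma-voom and 4 by DESeq2, which called 1125 of all 18786 tested genes. In edgeR 4 had an unadjusted p under 0.05, and the median log2 fold change was 0.17. No share over all genes was counted for the unadjusted p, here or in the next lists. STMN1 (stathmin), which binds free tubulin dimers, was at 247 CPM in CNTNAP2-203 OE and 142 CPM in control (log2 fold change 0.79, SE 0.166, edgeR adjusted p = 0.0690). KIF18A, a kinesin that limits microtubule length in mitosis, was at 55.9 CPM in CNTNAP2-203 OE and 40.9 CPM in control (log2 fold change 0.45, edgeR adjusted p = 0.0986). Among 19 tested tubulin modifying enzymes none was called by any of these tools and 3 had an unadjusted edgeR p under 0.05. Of the 19, 11 had a log2 fold change below 0 and 8 above it, against 49.6% of all tested genes above 0. The list's median was -0.03. VASH2, a tubulin detyrosinating enzyme, was low at 1.13 CPM in CNTNAP2-203 OE and 0.412 CPM in control (log2 fold change 1.45, SE 0.322, edgeR adjusted p = 0.0798), and AGTPBP1, which trims glutamate chains on tubulin, was at 22.3 CPM in CNTNAP2-203 OE and 28.5 CPM in control (log2 fold change -0.36, edgeR adjusted p = 0.222). Among 15 stabilisers and end-binding proteins none was called by any of them with all libraries, 2 had an unadjusted edgeR p under 0.05, and the median log2 fold change was -0.05. The smallest p belonged to MAP4, the main microtubule stabiliser outside neurons, at 166 CPM in CNTNAP2-203 OE and 206 CPM in control (log2 fold change -0.31, edgeR adjusted p = 0.211), and to CLIP1, a plus-end protein, at 109 CPM in CNTNAP2-203 OE and 140 CPM in control (log2 fold change -0.37, edgeR adjusted p = 0.230). Across the lists, the number called ranged from 0 to 11 over the processing alternatives.

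**Figure D4:**
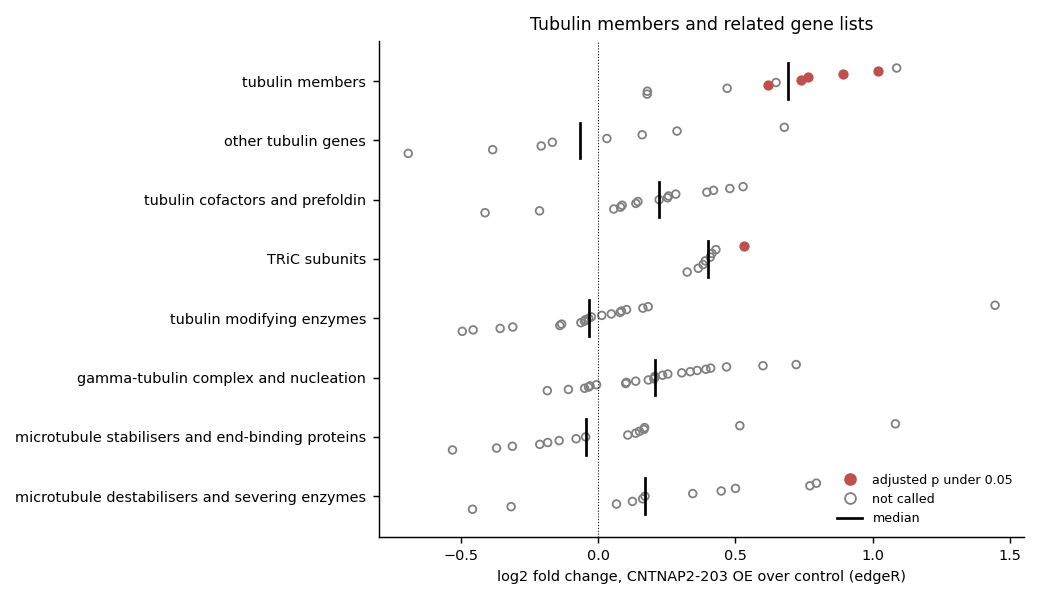
Log2 fold change (CNTNAP2-203 OE over control, edgeR) of each tested gene among the 10 tubulin members and in 7 lists of related genes. Points are genes, filled red where the adjusted p over all genes was under 0.05, and vertical bars are list medians. The members lie between 0.18 and 1.09, and TCP1 is the 1 called gene outside them.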

How the data were processed

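RNA-seq of CAL27 cells was used, with 3 CNTNAP2-203 OE and 3 control libraries. The authors deposited raw counts per gene and, in a second table, log2 values, which across genes behaved as log2(FPKM + 1): the gene length they imply varied by 0.233% between libraries (median coefficient of variation over 9405 genes), against 7.03% without the added 1. FPKM were recovered from these. The submitters' processing notes name the build hg38 and the trimming tool Trim Galore 0.4.4. The aligner, the counter, their annotation and the strand setting were not given in the sources used here. Rows were matched to GENCODE 29 (GRCh38) by gene ID. Rows without a symbol (2796) were kept under their IDs.

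Counts were filtered with filterByExpr (minimum count 10), scaled by TMM and tested with edgeR 4.0.16 (robust quasi-likelihood F test, R 4.3.3), with Benjamini-Hochberg adjustment over all 18786 genes and a threshold of 0.05. P-values weigh the difference between groups against the spread within groups of these libraries only. Alternatives used DESeq2 1.42.0 size factors, the DESeq2 Wald test, limma 3.58.1 voom, no filter, a replicate block and leaving out each library. The members, gene lists and markers were chosen with earlier results of these data known. The genes named are the members, CNTNAP2, the other tubulin genes with a count, and from each remaining list the genes past the threshold and the 2 with the smallest p, plus the 3 genes most like TUBA1B, TUBB and TUBG1. Outside this rule, TUBA3C and TUBB4A (no counts), TTC5, CCT2, CCT3, CCT6A and the genes overlapping a member or TCP1 were named after their values were seen, as were genes named for a call under an alternative. Of 111 listed related genes 110 were found by symbol, and TBCE was not. Coding identity is from a global alignment (Biopython 1.88) of the longest open reading frames, and promoters are RefSeq windows (GRCh38.p14), which matched all 10 members. Figures were drawn with matplotlib 3.10.9.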

Additional observations from a re-analysis of the deposited data

How the results depend on the processing

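The log2 fold changes of the members held better than the calls. Over 110 alternative values for the 10 members none changed sign. All of them reuse the libraries on which the members were chosen, so the kept signs add no support. Moves were set against each gene's own pooled SD within groups (log2 CPM), which allows wider moves for genes that vary more. By this measure 1 value moved, that of TUBA4A without CNTNAP2-203 OE replicate 3. With 1 library left out, the 3 members with the widest other ranges by ratio were TUBA1A (0.51 to 1.57), TUBB3 (0.38 to 0.92) and TUBB2A (0.03 to 0.39). The number of members called was 5, and it was 4 with DESeq2 size factors or limma-voom, which did not call TUBG1, 5 with the DESeq2 Wald test or no filter, and 0 to 5 when 1 library was left out. Over all genes, 262 calls became 1125 with the DESeq2 Wald test (650 higher, 475 lower) and 13 to 560 with 1 library left out, the 560 being without CNTNAP2-203 OE replicate 3. The cause of these changes was not tested. Of the related genes 1 was called, 3 with no filter (HAUS8, STMN1, TCP1), 11 with the DESeq2 Wald test (among them 5 TRiC subunits) and 0 to 4 with 1 library left out.

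With the replicate number as a block, 17 genes were called over all genes, 0 members and 0 related genes. Same-numbered libraries deviated from their group means with correlations of -0.0824, 0.0454 and -0.0283, and not every library correlated best with its own number. With 3 libraries per group, such correlations cannot show whether same-numbered libraries were handled together, and the labels do not say.

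The differences in isotype share kept their sign except for 2 low genes, and the cause was not tested. The difference of TUBA1A, 0.0283 percentage points, ranged from -0.0663 to 0.149 with 1 library left out, being -0.0200 without CNTNAP2-203 OE replicate 2, -0.0441 without CNTNAP2-203 OE replicate 3 and -0.0663 without control replicate 3. The difference of TUBB3, -0.0555, ranged from -0.187 to 0.0389, the last without control replicate 1, and was -0.108 with raw counts. Of those that kept their sign, TUBB4B (-1.76) was -2.75 without CNTNAP2-203 OE replicate 3 and -0.996 without CNTNAP2-203 OE replicate 1, TUBB2A (-0.671) was -0.371 without control replicate 2, and TUBB6 (-0.721) was -1.11 with raw counts. TUBA1A rests on 46 to 369 counts per library, and what depth contributes to its spread was not tested.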

Other observations

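Tubulin pseudogenes took a small part of the tubulin counts. The 33 annotated beta pseudogenes, 11 of them with a count, held 0.617 ± 0.145% of the beta counts in CNTNAP2-203 OE and 1.17 ± 0.0387% in control (SD, n = 3 each), without overlap. The beta genes in the denominator were themselves higher in CNTNAP2-203 OE, so the lower share does not by itself show a lower level of the pseudogenes. The alpha pseudogenes held 0.0520 ± 0.00759% of the alpha counts in CNTNAP2-203 OE and 0.0462 ± 0.0193% in control.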
